A study of Mus musculus with 9 samples.

Results

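The genes described here are 34 mouse genes of the JNK and p38 kinase cascades, chosen by symbol for their place in the pathway, among 22036 annotated genes in the count table. They comprise 7 JNK and p38 kinases, 4 MAP2 kinases, 9 MAP3 kinases, 2 partners of the MAP3 kinase TAK1, 5 kinases that p38 activates, 3 GADD45 activators and 4 dual-specificity phosphatases. All 34 symbols were found, each once, and 33 passed the filter on low counts. Mapk13 did not pass it and is given by its reads.

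Left ventricle of 9 wild-type mice (genotype WT) was profiled by bulk mRNA sequencing, in 3 groups of 3 labelled biological replicates. ND+AAV-CON mice carried the diet label ND and a control adeno-associated virus (AAV), HFD+AAV-CON mice the diet label HFD and the same control vector, and HFD+AAV-BCKDK mice the diet label HFD and a vector named for BCKDK. ND and HFD are read as normal and high-fat diet. The groups are called ND-CON, HFD-CON and HFD-BCKDK below. All 3 groups thus carried an AAV. Age, sex, diet duration, vector promoter, vector dose and the cells the vector reached are not stated in the labels. The series title names BCKDK, the kinase that inhibits branched-chain keto acid dehydrogenase, in cardiac change with obesity and ties it to JNK and p38.

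JNK and p38 are mitogen-activated protein kinases (MAPKs) that respond to stress and cytokines. A MAP3 kinase phosphorylates a MAP2 kinase, which phosphorylates the MAPK on a threonine and a tyrosine, and dual-specificity phosphatases (DUSPs) remove those phosphates. In heart muscle the cascades are known for responses to pressure load, oxidative stress and inflammation. Activity is set by phosphorylation, which was not measured: every value below is an mRNA level or a difference between mRNA levels.

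The 9 libraries held 32803233 to 45483044 reads in annotated genes. Mitochondrially encoded genes took 42.1% to 45.7% of the reads in ND-CON, 26.1% to 39.9% in HFD-CON and 45.0% to 47.6% in HFD-BCKDK. With TMM scaling, which sets the bulk of genes level, the median log2 difference of 14160 tested genes was 0.00 between HFD-CON and ND-CON (the diet comparison) and -0.01 between HFD-BCKDK and HFD-CON (the vector comparison). With scaling to total counts the same medians were 0.40 and -0.47, and 9 of the 33 tested members changed sign in the diet comparison and 16 in the vector comparison. Levels are CPM, the share of a library's reads on the usual scale, with TMM scaling unless total counts are named, and differences are log2 fold changes. Apart from read ratios, groups said to overlap or lie apart are compared on TMM levels, and some such statements change with total counts. Bckdk itself stood at 78.6, 70.3 and 70.6 CPM in ND-CON, 37.1, 65.0 and 49.4 CPM in HFD-CON, and 111, 126 and 120 CPM in HFD-BCKDK. It rose in the vector comparison by 1.24 in log2 units (SE 0.17, adjusted p = 0.0016, edgeR), and by 0.82 with total counts. The diet comparison gave -0.54 (SE 0.17, adjusted p = 0.0300), or 0.0852 without HFD-CON replicate 3, and -0.18 with total counts (adjusted p = 0.189). HFD-BCKDK against ND-CON gave 0.70 (SE 0.17, adjusted p = 0.0700), and 0.64 with total counts (adjusted p = 0.0238).

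HFD-CON replicate 3 differed from the other libraries. Reads in loci without a gene name were 1.02% of its total against 4.75% to 6.01% in the others, and its level lay between those of the other HFD-CON libraries for 64.2% of tested genes, against 14.8% to 37.4% for any other library within its group. The same was so for 17 of the 34 members, close to the 16 of ND-CON replicate 2 and the 15 of HFD-BCKDK replicate 3. The counts of every pair of replicates differed by more than sampling noise, and the chi-square divided by its degrees of freedom was 261 between HFD-CON replicates 1 and 2, 63.6 between 1 and 3, 73.9 between 2 and 3, and 14.9 to 23.3 in the other groups. The labels call this library a separate biological replicate, and whether it is an independent animal could not be settled from the counts. The n of 3, the SEs and the overlaps given for HFD-CON all rest on it, and the counts of called genes by list are also given without it.

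Summed markers of heart cell types moved with the groups. The 10 cardiomyocyte markers summed to 45330 to 46966 CPM in ND-CON, 20769 to 36105 in HFD-CON and 40521 to 43371 in HFD-BCKDK, and 8 of the 10 fell in the diet comparison, against 2 without HFD-CON replicate 3. The 10 macrophage and monocyte markers summed to 664 to 906, 1790 to 2960 and 502 to 667 CPM in the same order, with 10 of 10 rising in the diet comparison with or without that library. The 10 fibroblast markers summed to 2474 to 2573, 3305 to 5622 and 2348 to 2541 CPM, with 7 of 10 rising (5 without it). The T and NK cell markers summed to 1.62 to 32.4, 81.3 to 148 and 2.39 to 10.3 CPM, with 6 of 7 tested rising with diet (4 without it) and 7 of 7 falling with vector (6 without it). The 8 endothelial markers summed to 850 to 952, 597 to 810 and 922 to 1047 CPM, with 5 of 8 falling (3 without it). The 8 pericyte and smooth muscle markers summed to 1417 to 1504, 839 to 1162 and 1335 to 1369 CPM, with 4 of 8 falling, and the 5 erythroid markers to 1479 to 1657, 460 to 902 and 971 to 1567 CPM, with 5 of 5 falling, both counts the same without it. The B and plasma cell markers summed to 1.67 to 193, 76.3 to 236 and 1.13 to 4.25 CPM and the neutrophil markers to medians of 4.70, 14.6 and 7.07 CPM, with Ly6g at 0 in ND-CON. The 5 atrial markers summed to 86.6 to 212, 286 to 1439 and 63.3 to 177 CPM, with Myl7 at 0 in all HFD-BCKDK libraries. None of the cardiomyocyte, macrophage, fibroblast or endothelial markers was at 0 in all libraries of a group. The part of these shifts in the results for JNK and p38 genes was not tested, and in bulk tissue fewer cells of a type and less RNA per cell cannot be told apart.

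In the diet comparison 8 of the 33 tested members rose and 12 fell at a false discovery rate of 0.05, beside 43.3% of all tested genes called, 22.7% higher and 20.6% lower. The median log2 difference was -0.08 over the members and 0.00 over all genes tested. Members that rose were Map3k1, Map3k3, Map3k6, Map3k11, Tab2, Mapkapk3, Gadd45b and Gadd45g. Members that fell were Mapk8, Mapk10, Mapk12, Map2k4, Map2k6, Map2k7, Map3k5, Map3k20, Tab1, Mapkapk5, Rps6ka5 and Gadd45a. With total counts 16 rose and 3 fell, beside 42.3% of all genes called higher and 6.6% lower (48.9% in all), and the calls held under both scalings were all 8 rises and 3 of the 12 falls, those of Map2k6, Rps6ka5 and Gadd45a. Without HFD-CON replicate 3, 6 rose and 8 fell, beside 28.3% of all genes called (16.2% higher, 12.0% lower): the rises of Map3k3, Map3k6, Map3k11, Tab2, Mapkapk3 and Gadd45b and the falls of Map2k6, Rps6ka5 and Gadd45a were held in all 3 fits. The 3 HFD-CON libraries lay wholly above the 3 ND-CON libraries for 11 members and wholly below for 13, beside 28.2% and 27.1% of all genes (55.3% with no overlap).

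In the vector comparison 10 members rose and 3 fell, beside 38.2% of all genes called, 17.3% higher and 20.9% lower. The median was 0.09 over the members and -0.01 over all genes. Rises were seen for Mapk10, Mapk12, Map2k4, Map3k5, Map3k20, Mapkapk2, Mapkapk5, Rps6ka5, Dusp8 and Dusp16, and falls for Map3k1, Map3k3 and Gadd45b. With total counts 0 rose (0 also at an unadjusted p under 0.05 in edgeR; DESeq2, with its own size factors, called 11 rises) and 16 fell, beside 2.81% of all genes called higher and 48.5% lower (51.3% in all), so that none of the 10 rises was held and all 3 falls were. Without HFD-CON replicate 3, 5 rose and 1 fell, beside 19.9% called (6.87% higher, 13.0% lower), and the fall of Gadd45b was the 1 call held in all 3 fits. HFD-BCKDK lay wholly above HFD-CON for 12 members and wholly below for 6, beside 24.0% and 27.3% of all genes (51.2% with no overlap). Both comparisons use the same HFD-CON libraries, so their values are given side by side and are not independent.

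HFD-BCKDK was also set against ND-CON, a comparison in which diet and vector differ together and which shares each group with one of the others. Dusp8 rose, and Map2k6 and Gadd45a fell, under both scalings, beside 2.45% of all genes called with TMM scaling (1.18% higher, 1.27% lower) and 0.96% with total counts (0.36% higher, 0.6% lower). The median was 0.02 over the members and -0.03 over all genes. Without HFD-CON replicate 3, which is in neither group but shares the estimate of the spread, 0 members rose and 1 fell, Gadd45a, beside 0.852% called (0.468% higher, 0.384% lower); 7 rises and 2 falls had an unadjusted p under 0.05 in edgeR there. With all libraries DESeq2 called 3 rises and 2 falls. The groups did not overlap for 13 of the 33 members, 8 higher and 5 lower in HFD-BCKDK, beside 27.7% of all genes (12.6% higher, 15.1% lower).

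**Figure D1:**
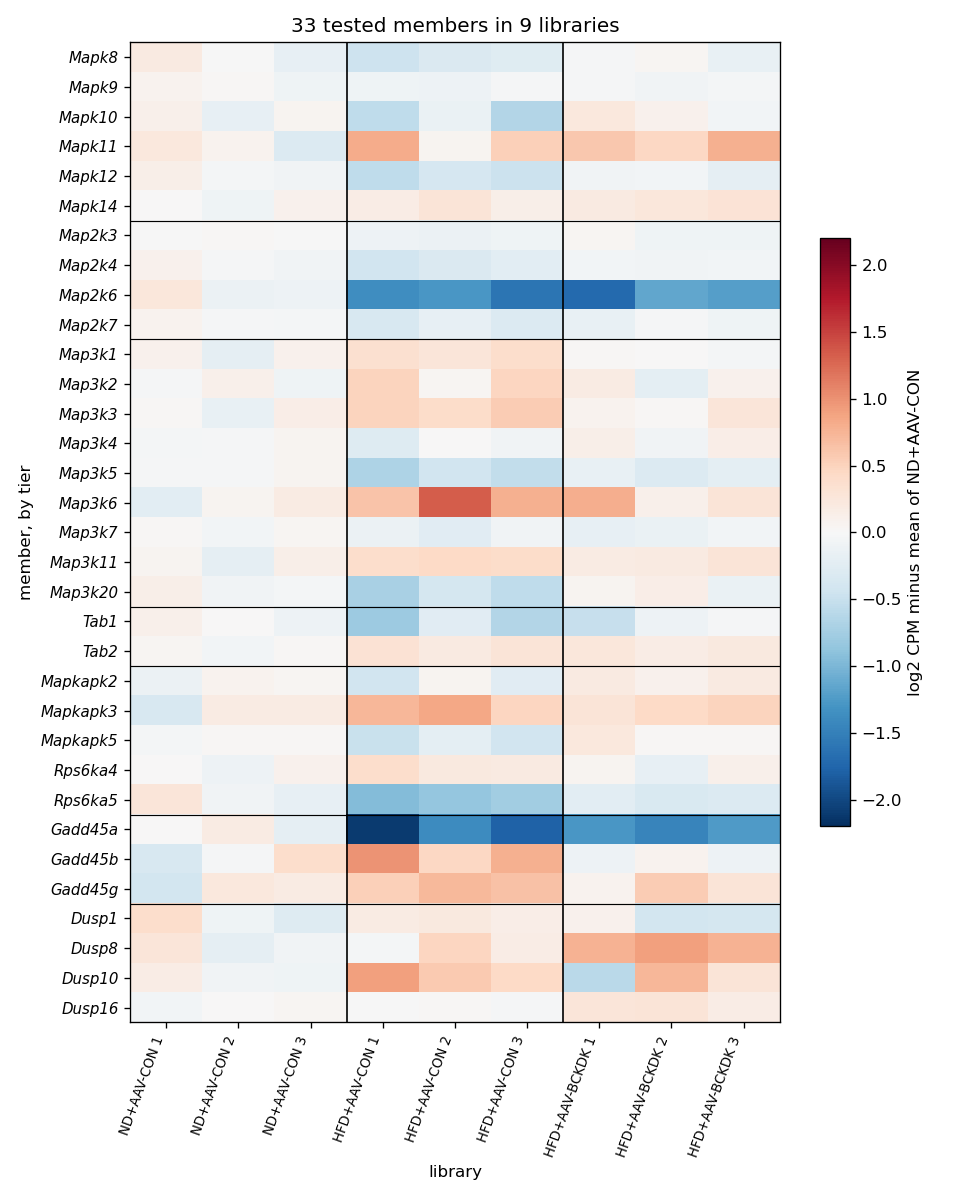
Level of 33 members (rows, by tier) in 9 libraries (columns), as log2 TMM-scaled CPM minus the mean of the 3 ND-CON libraries. Map2k6 and Gadd45a are low in all 6 HFD libraries with TMM scaling, and Dusp8 is high in all 3 HFD-BCKDK libraries.

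Members were compared with each other per kilobase of merged exons, from GENCODE gene models on the mm10 genome. In ND-CON the highest member was Mapkapk2, the kinase that p38 activates to steady cytokine mRNAs, at 94.3 ± 6.79 CPM per kb (SD, n = 3). Dusp1, an early-response phosphatase of JNK and p38, followed at 29.6 ± 7.31. Map2k3 (17.5 ± 0.203), Map3k20 (15.3 ± 1.15), Mapk14 (12.5 ± 0.794), Gadd45a (11.7 ± 1.53) and Mapkapk5 (11.5 ± 0.342) came next, and the ranges of the last 3 over libraries overlapped. The lowest tested members were Map2k6 (0.98 ± 0.149), Mapk10 (0.934 ± 0.0962), Rps6ka5 (0.767 ± 0.126) and Mapk11 (0.738 ± 0.131), whose ranges overlapped from each to the next. In HFD-CON Gadd45a stood at 3.52 ± 0.88 CPM per kb and Map2k6 at 0.365 ± 0.0416, the lowest mean of the tested members there. The range of Map2k6 in HFD-CON (0.318 to 0.399) overlapped that of Rps6ka5 (0.394 to 0.446).

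**Figure D2:**
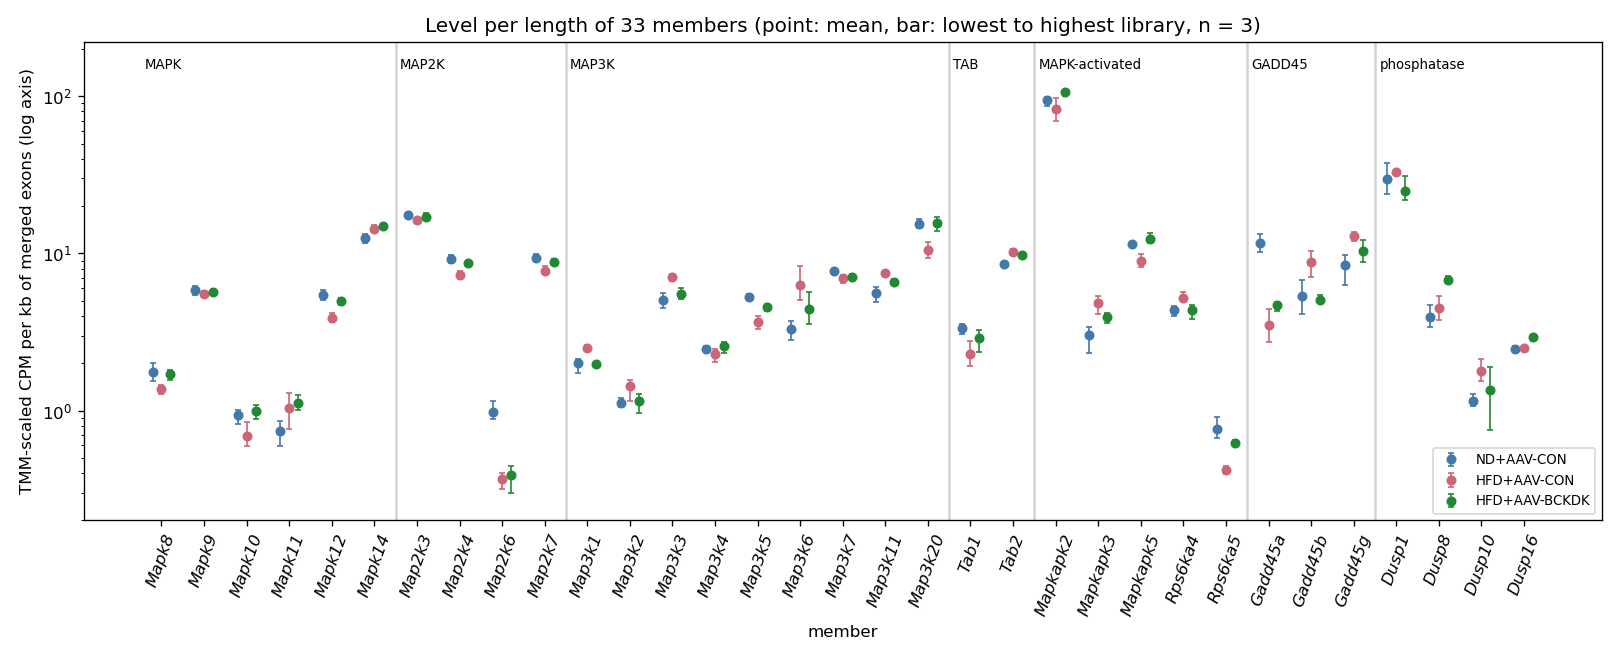
TMM-scaled CPM per kb of merged exons on a log axis for 33 members in 3 groups (point, mean; bar, lowest to highest of 3 libraries). Levels in ND-CON run from 0.738 for Mapk11 to 94.3 for Mapkapk2, and the bars of Gadd45a and Map2k6 in ND-CON lie clear of the other 2 groups.

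The MAP3 kinases open the cascade. Of 9, 4 rose and 2 fell in the diet comparison, beside 22.7% of all genes higher and 20.6% lower. These were 5 and 0 with total counts (beside 42.3% and 6.6%) and 3 and 2 without HFD-CON replicate 3 (beside 16.2% and 12.0%). Map3k6 (ASK2), a partner of the stress kinase ASK1, stood at 12.8, 15.7 and 17.0 CPM in ND-CON, 23.3, 38.2 and 25.9 in HFD-CON and 26.2, 16.3 and 18.5 in HFD-BCKDK. All HFD-CON libraries lay above ND-CON, while HFD-BCKDK overlapped both groups. The rise with diet was 0.94 (SE 0.22, adjusted p = 0.0093) with TMM scaling and 1.29 with total counts. The vector comparison gave -0.52 (SE 0.22, adjusted p = 0.0919), not called, and a fall of -0.93 with total counts.

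Map3k5 (ASK1), which thioredoxin holds inactive until it is oxidised, lay the other way. It stood at 31.6, 31.8 and 33.5 CPM in ND-CON, 20.1, 24.2 and 22.2 in HFD-CON and 28.9, 26.1 and 27.7 in HFD-BCKDK, and no 2 groups overlapped. With total counts its ranges in HFD-CON (24.8 to 28.5 CPM) and HFD-BCKDK (22.5 to 25.7 CPM) overlapped. It fell by 0.54 with diet (SE 0.09, adjusted p = 0.0018) and rose by 0.32 with vector (SE 0.09, adjusted p = 0.0216). With total counts the values were -0.16 and -0.13, neither called. Among the 9 fits that each left out a library, the vector call was lost without HFD-CON replicate 3 (adjusted p = 0.0538), HFD-BCKDK replicate 1 (0.0705), HFD-BCKDK replicate 3 (0.0544) or HFD-CON replicate 1, where it sat at the threshold (0.050). Reads of Map3k6 per read of Map3k5 were 0.406 to 0.508 in ND-CON, 1.16 to 1.58 in HFD-CON and 0.626 to 0.907 in HFD-BCKDK, so no 2 groups overlapped in this ratio, which does not depend on scaling.

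Map3k20 (ZAK), which senses stalled ribosomes, was the most abundant MAP3 kinase per kb. It stood at 169, 148 and 151 CPM in ND-CON, 95.0, 119 and 105 in HFD-CON and 162, 173 and 141 in HFD-BCKDK. The HFD-CON libraries lay below both other groups, which overlapped. With total counts its range in HFD-CON (122 to 135 CPM) overlapped that in HFD-BCKDK (130 to 149 CPM). It fell by 0.55 with diet (SE 0.11, adjusted p = 0.0051) and rose by 0.57 with vector (SE 0.11, adjusted p = 0.0059), both calls held in all 9 fits that left out a library, against -0.17 and 0.13 with total counts, neither called.

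Map3k3 (MEKK3), which acts on both p38 and ERK5 branches, stood at 20.6, 18.0 and 22.4 CPM in ND-CON, 28.5, 26.8 and 29.8 in HFD-CON and 21.3, 20.5 and 24.3 in HFD-BCKDK. The HFD-CON libraries were the highest 3 of the 9. It rose with diet by 0.48 (SE 0.10, adjusted p = 0.0061; 0.89 with total counts) and fell with vector by 0.36 (SE 0.10, adjusted p = 0.0239; -0.82 with total counts). The vector call was lost without HFD-CON replicate 3 (adjusted p = 0.0973), HFD-CON replicate 1 (0.0671), HFD-BCKDK replicate 1 (0.0754) or HFD-BCKDK replicate 2 (0.0815).

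Map3k1 (MEKK1), an upstream kinase of JNK, rose with diet by 0.33 (SE 0.10, adjusted p = 0.0222) and fell with vector by 0.34 (SE 0.10, adjusted p = 0.0238), with the same directions under total counts (0.73 and -0.80). Its range was 13.0 to 15.9 CPM in ND-CON, 17.9 to 19.3 in HFD-CON and 14.5 to 15.1 in HFD-BCKDK. Both calls were lost without HFD-CON replicate 3 (adjusted p = 0.0791 and 0.0971) and without HFD-CON replicate 1 (0.0564 and 0.0729), the diet call also without ND-CON replicate 2 (0.0784), and the vector call without any 1 HFD-BCKDK library (0.0591 to 0.0707). Map3k11 (MLK3), which binds the GTPases Rac and Cdc42, rose with diet by 0.40 (SE 0.09, adjusted p = 0.0077; 0.80 with total counts) and gave -0.19 with vector, not called (-0.64 with total counts, called). Reads of Map3k11 are uncertain because 11.8% of its exon bases lie under Pcnx3 and another antisense gene, and whether counting used strand is not stated in the labels.

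The other 3 MAP3 kinases were not called in either comparison with TMM scaling. Map3k7 (TAK1), the kinase downstream of interleukin-1 and TNF receptors, gave -0.15 with diet and 0.02 with vector (0.26, not called, and -0.44, called, with total counts). Map3k4 (MEKK4), which GADD45 proteins bind and activate, gave -0.12 and 0.19 (0.26 and -0.25 with total counts, neither called). Map3k2 (MEKK2) gave 0.35 and -0.32, and was called with total counts at 0.77 and -0.79. Of the partners of TAK1, the activating subunit gene Tab1 fell with diet by 0.55 (SE 0.17, adjusted p = 0.0258; -0.18 with total counts, not called), while Tab2, whose protein docks TAK1 to ubiquitin chains, rose by 0.27 (SE 0.07, adjusted p = 0.0110; 0.68 with total counts). With vector they gave 0.36 and -0.06, neither called, and with total counts -0.07, not called, and -0.53, called. Tab1 ranged over 10.3 to 12.0 CPM in ND-CON and 6.45 to 9.34 in HFD-CON, and Tab2 over 49.9 to 53.4 and 60.1 to 65.2. The Tab1 call was lost in 4 fits that left out a library, among them the one without HFD-CON replicate 3 (adjusted p = 0.0863), the one without HFD-CON replicate 1 (0.0817), the one without ND-CON replicate 1 (0.0797) and the one without ND-CON replicate 2 (0.0674). The Tab2 call was held in all 9.

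Of the 4 MAP2 kinases 3 fell and 0 rose in the diet comparison with edgeR and TMM scaling, beside 20.6% of all genes lower and 22.7% higher. With TMM scaling 0 rose at an unadjusted p under 0.05 in edgeR, and DESeq2 called 0 rises. With total counts 1 fell, beside 6.6% of all genes, and 1 rise and 1 fall had an unadjusted p under 0.05 in edgeR. Without HFD-CON replicate 3, 2 fell, beside 12.0% of all genes. Map2k6 (MKK6), which phosphorylates p38 alone, stood at 3.96, 3.05 and 3.11 CPM in ND-CON, 1.30, 1.37 and 1.10 in HFD-CON, and 1.02, 1.52 and 1.45 in HFD-BCKDK. All 6 HFD libraries lay below all 3 ND-CON libraries, and the 2 HFD groups overlapped. It fell with diet by 1.42 (SE 0.24, adjusted p = 0.0020) and by 1.02 with total counts. The vector comparison gave 0.09 (SE 0.24, adjusted p = 0.804) with TMM scaling and -0.37 with total counts, neither called. Against ND-CON, HFD-BCKDK was lower by -1.34 (SE 0.24, adjusted p = 0.0256; -1.39 with total counts). That last call was lost in 7 of the 9 fits that left out a library, with an adjusted p between 0.0566 (without HFD-CON replicate 3) and 0.105 (without ND-CON replicate 1), and held without HFD-CON replicate 1 or 2.

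Map2k3 (MKK3), another kinase that acts on p38, did not share this pattern of values: it ranged over 57.5 to 58.8 CPM in ND-CON, 53.0 to 54.4 in HFD-CON and 54.1 to 60.0 in HFD-BCKDK, with a diet value of -0.11 (SE 0.07, adjusted p = 0.203; 0.29 with total counts, not called). Its vector value was 0.06, not called, and -0.39 with total counts, called. The pairs of members set against each other here were chosen with results known, and their ratios are a description. There were 14.5 to 19.3 reads of Map2k3 for each read of Map2k6 in ND-CON, 38.6 to 49.6 in HFD-CON and 35.9 to 58.6 in HFD-BCKDK. The ND-CON libraries held the 3 lowest of the 9 ratios.

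The JNK kinases Map2k4 (MKK4), which also acts on p38, and Map2k7 (MKK7) fell with diet by 0.33 (SE 0.08, adjusted p = 0.0081) and 0.28 (SE 0.08, adjusted p = 0.0195), but gave 0.07 and 0.12 with total counts, neither called. Map2k4 rose with vector by 0.26 (SE 0.08, adjusted p = 0.0253) with TMM scaling and gave -0.19 with total counts, not called. Map2k7 gave 0.18 with TMM scaling and -0.27 with total counts, neither called. The reads of Map2k4 per read of Map2k7 were 1.16 to 1.20 in ND-CON, 1.07 to 1.24 in HFD-CON and 1.15 to 1.27 in HFD-BCKDK, so all 3 groups overlapped. The diet call of Map2k7 was lost without HFD-CON replicate 3 (adjusted p = 0.0674), HFD-CON replicate 1 (0.0605) or ND-CON replicate 1 (0.0661), and the vector call of Map2k4 without HFD-CON replicate 1 (0.0588) or any 1 HFD-BCKDK library (0.0626 to 0.0658). Of the Map2k7 exon bases 35.2% are shared with the locus Gm49320, so its count is uncertain.

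**Figure D3:**
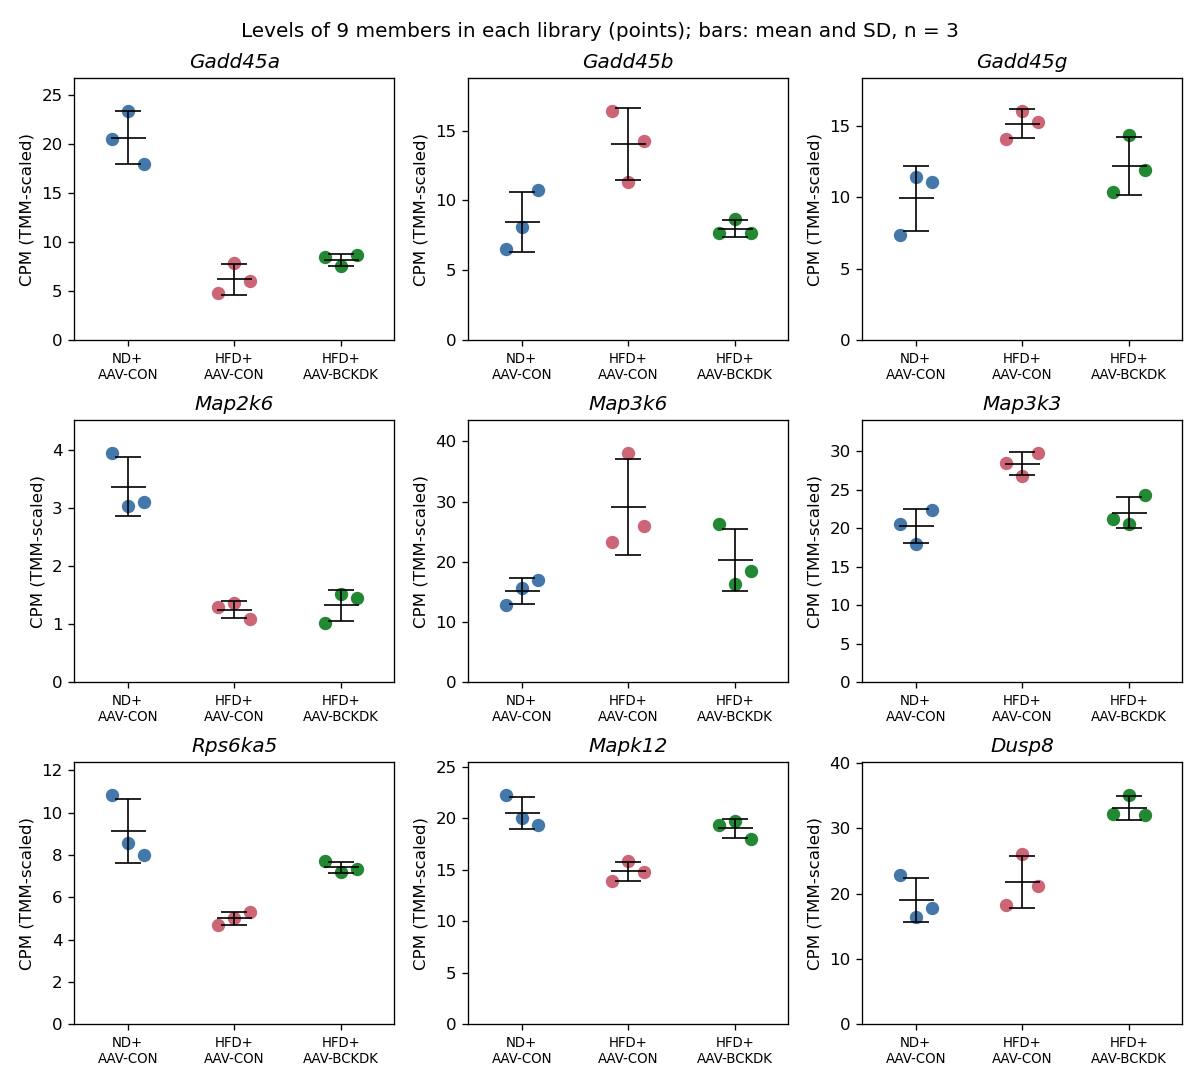
TMM-scaled CPM of 9 members in each library (points) with the mean and SD of 3 replicates (bars), each panel on its own axis from 0. Gadd45a and Map2k6 are higher in ND-CON than in all 6 HFD libraries, Map3k3 is highest in HFD-CON, Rps6ka5 and Mapk12 are lowest there, and Dusp8 is highest in HFD-BCKDK.

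Among the JNK genes, Mapk9 (JNK2) made up 68.5% ± 1.27 of the level per kb of the 3 genes in ND-CON, 72.8% ± 1.97 in HFD-CON and 67.8% ± 1.70 in HFD-BCKDK (SD, n = 3). It was not called in either comparison (-0.08 and 0.04), though it was lower with vector by -0.42 with total counts. Mapk8 (JNK1) stood at 22.9, 19.9 and 17.7 CPM in ND-CON, 14.5, 16.1 and 16.6 in HFD-CON and 19.7, 20.6 and 18.0 in HFD-BCKDK. It fell with diet by 0.36 (SE 0.11, adjusted p = 0.0286) with TMM scaling and gave 0.04 with total counts, not called. Its vector value was 0.30 (SE 0.11, adjusted p = 0.0580) with TMM scaling and -0.15 with total counts, neither called. Mapk10 (JNK3), known as the neuronal and cardiac form, fell by 0.44 with diet (SE 0.15, adjusted p = 0.0448) and rose by 0.52 with vector (SE 0.15, adjusted p = 0.0268), with -0.06 and 0.08 under total counts, neither called.

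The diet call of Mapk8 was lost without HFD-CON replicate 3 (adjusted p = 0.0557), HFD-CON replicate 1 (0.0895), ND-CON replicate 1 (0.103) or ND-CON replicate 2 (0.0663). The diet call of Mapk10 was lost in 7 of the 9 such fits (adjusted p between 0.0519 and 0.153, the last without HFD-CON replicate 3) and held without ND-CON replicate 2 or HFD-CON replicate 2. Its vector call was lost without HFD-CON replicate 3 (0.0871), HFD-CON replicate 1 (0.0712), HFD-BCKDK replicate 1 (0.0882) or HFD-BCKDK replicate 2 (0.0690). Reads of Mapk9 per read of Mapk8 were 1.83 to 2.09 in ND-CON, 2.27 to 2.55 in HFD-CON and 1.83 to 2.14 in HFD-BCKDK, and the HFD-CON libraries held the 3 highest ratios.

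Among the p38 genes, Mapk14 (p38 alpha), the main form in heart, made up 67.0% ± 2.64, 73.8% ± 1.46 and 70.7% ± 1.05 of the level per kb in ND-CON, HFD-CON and HFD-BCKDK. It ranged over 51.2 to 58.1, 59.6 to 66.8 and 62.9 to 67.2 CPM in that order. The diet value of 0.20 (SE 0.08, adjusted p = 0.0657) was not called with TMM scaling and was called at 0.59 with total counts. Its vector value was 0.05 (SE 0.08, adjusted p = 0.606), not called, and -0.40 with total counts, called lower. Mapk12 (p38 gamma), a form found in striated muscle, stood at 22.3, 20.0 and 19.3 CPM in ND-CON, 13.9, 15.8 and 14.8 in HFD-CON and 19.4, 19.7 and 18.0 in HFD-BCKDK. Each HFD-CON library lay below all 6 others. With total counts its range in HFD-CON (16.2 to 19.8 CPM) overlapped those in ND-CON (18.3 to 20.2 CPM) and HFD-BCKDK (16.6 to 17.1 CPM). Mapk12 fell with diet by 0.47 (SE 0.09, adjusted p = 0.0037) and rose with vector by 0.36 (SE 0.09, adjusted p = 0.0154), against -0.08 and -0.09 with total counts, neither called.

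The vector call of Mapk12 was lost without HFD-BCKDK replicate 1 (adjusted p = 0.0507) or replicate 2 (0.0532), and its diet call was held in all 9 fits. Reads of Mapk12 per read of Mapk14 were 0.333 to 0.407 in ND-CON, 0.227 to 0.248 in HFD-CON and 0.267 to 0.308 in HFD-BCKDK, with no overlap between any 2 groups. Mapk11 (p38 beta) held 3.97% to 5.37% of the family level per kb as group means and was not called in either comparison (0.49 and 0.11) with TMM scaling. With total counts it was called higher with diet (0.93, adjusted p = 0.0314) and gave -0.38 with vector, not called. Its reads per read of Mapk14 were 0.0296 to 0.0450 in ND-CON, 0.0331 to 0.0607 in HFD-CON and 0.0448 to 0.0537 in HFD-BCKDK. All 3 groups overlapped in this ratio. Mapk13 (p38 delta), a form known from epithelium and leukocytes, had 0, 0 and 0 reads in ND-CON, 31, 4 and 23 in HFD-CON and 0, 3 and 4 in HFD-BCKDK. A count of 0 in a library allows up to 3 reads, by counting error alone, so no fold is given for it.

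Of the 5 kinases that p38 activates, 1 rose and 2 fell with diet, beside 22.7% of all genes higher and 20.6% lower. These were 2 and 1 with total counts (beside 42.3% and 6.6%) and 1 and 2 without HFD-CON replicate 3 (beside 16.2% and 12.0%). Mapkapk3 (MK3), a close relative of Mapkapk2, stood at 12.9, 18.7 and 18.6 CPM in ND-CON, 27.2, 29.7 and 22.9 in HFD-CON and 20.1, 22.5 and 23.2 in HFD-BCKDK. All HFD-CON libraries lay above ND-CON. It rose by 0.67 (SE 0.15, adjusted p = 0.0080; 1.06 with total counts), held in all 9 fits that left out a library, and gave -0.28 with vector, not called (-0.73 with total counts, called). Mapkapk2 (MK2) was not called with diet (-0.19; 0.18 with total counts) and rose with vector by 0.36 (SE 0.13, adjusted p = 0.0458; -0.07 with total counts), a call lost in 8 of the 9 fits (adjusted p up to 0.116, without HFD-BCKDK replicate 1) and held only without HFD-CON replicate 2.

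Rps6ka5 (MSK1), a nuclear kinase of CREB and histone H3, stood at 10.9, 8.59 and 8.01 CPM in ND-CON, 4.70, 5.03 and 5.32 in HFD-CON and 7.71, 7.21 and 7.36 in HFD-BCKDK. No 2 of the groups overlapped with TMM scaling, while with total counts its ranges in HFD-CON (5.16 to 6.66 CPM) and HFD-BCKDK (6.22 to 6.82 CPM) did. It fell with diet by 0.87 (SE 0.14, adjusted p = 0.0016; -0.47 with total counts, also called) and rose with vector by 0.57 (SE 0.14, adjusted p = 0.0128; 0.11 with total counts, not called), with both TMM calls held in all 9 fits. Its relative Rps6ka4 (MSK2) gave 0.27 with diet and -0.27 with vector, neither called, but with total counts both were called (0.67, adjusted p = 0.0118, and -0.73, adjusted p = 0.0085), and 19.8% of its exon bases overlap other loci. Reads of Rps6ka4 per read of Rps6ka5 were 1.45 to 2.08 in ND-CON, 3.37 to 4.32 in HFD-CON and 1.90 to 2.28 in HFD-BCKDK.

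Mapkapk5 (MK5) fell with diet by 0.37 (SE 0.09, adjusted p = 0.0122) and rose with vector by 0.47 (SE 0.09, adjusted p = 0.0062), with 0.01 and 0.03 under total counts, neither called. Of its exon bases 56.5% lie under Adam1a and Gm42878 on the same strand, so its reads cannot be told apart from theirs by position. In the read ratios, Mapkapk3 per Mapkapk2 was 0.049 to 0.063 in ND-CON, 0.095 to 0.128 in HFD-CON and 0.061 to 0.073 in HFD-BCKDK.

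The GADD45 genes encode small proteins that bind MAP3K4 and open its kinase domain, and GADD45B is also known to bind and inhibit MKK7. The promoters of the 3 genes are shown as a description, and no link between their letters and the mRNA levels was tested. RefSeq promoter windows of GRCm38.p6, from 250 bases before to 50 after a start site, were found for 32 of the 34 members. The stretches below run 5′ to 3′ on the gene's strand from 150 to 21 bases before the start, with CCAAT boxes (read as CCAAT) and TATA boxes (read as TATAAA) in capitals, and lie at chr6:67037428-67037557 (minus strand), chr10:80929941-80930070 (plus) and chr13:51846525-51846654 (plus).
Gadd45a: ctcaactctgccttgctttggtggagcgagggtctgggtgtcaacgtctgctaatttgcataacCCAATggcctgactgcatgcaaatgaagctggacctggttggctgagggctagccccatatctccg
Gadd45b: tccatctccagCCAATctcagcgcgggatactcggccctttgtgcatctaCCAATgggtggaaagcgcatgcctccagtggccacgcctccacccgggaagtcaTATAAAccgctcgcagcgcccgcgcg
Gadd45g: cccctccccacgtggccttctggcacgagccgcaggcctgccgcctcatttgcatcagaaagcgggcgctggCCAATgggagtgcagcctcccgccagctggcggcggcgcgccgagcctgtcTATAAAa
All 3 windows held CCAAT, as did 14 of the 32 members in at least 1 window, against 41.1% of 27025 genes counted the same way and 37.4% of 32851 single windows, searched on both strands; 9 of the 32 members had more than 1 window. TATAAA was found in Gadd45b and Gadd45g and in 5 of 32 members, against 15.7% of genes and 13.6% of windows, and not in these letters in the Gadd45a window. These are matches of letters and not sites shown to be bound.

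Gadd45a, a stress gene known as a p53 and FoxO target, stood at 20.5, 23.4 and 18.0 CPM in ND-CON, 4.78, 7.86 and 6.01 in HFD-CON and 8.46, 7.53 and 8.67 in HFD-BCKDK. All 6 HFD libraries lay below the 3 ND-CON libraries. It fell with diet by 1.74 (SE 0.18, adjusted p = 4.29e-04) with TMM scaling and by 1.37 with total counts, the farthest from 0 of the 33 members under both scalings. The vector comparison gave 0.41 (SE 0.18, adjusted p = 0.0950) and -0.01 with total counts, neither called. HFD-BCKDK was lower than ND-CON by -1.33 (SE 0.18, adjusted p = 0.0091; -1.38 with total counts), a call lost without ND-CON replicate 1 (0.0518) or HFD-BCKDK replicate 2 (0.0512). Of its exon bases 19.1% lie opposite the antisense locus E230016M11Rik, whose reads cannot be told apart without strand.

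Gadd45b, induced by NF-kappaB and TGF-beta, stood at 6.51, 8.10 and 10.8 CPM in ND-CON, 16.4, 11.3 and 14.3 in HFD-CON and 7.65, 8.70 and 7.65 in HFD-BCKDK. The 3 HFD-CON libraries lay above the 6 others. Gadd45b rose with diet by 0.73 (SE 0.19, adjusted p = 0.0148; 1.15 with total counts) and fell with vector by 0.81 (SE 0.19, adjusted p = 0.0125; -1.30 with total counts). The diet call was lost without ND-CON replicate 2 (adjusted p = 0.0517) or HFD-CON replicate 1 (0.0502), and the vector call was held in all 9 fits. Against ND-CON, HFD-BCKDK gave -0.08 (SE 0.20, adjusted p = 0.881), not called.

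Gadd45g stood at 7.33, 11.4 and 11.1 CPM in ND-CON, 14.0, 16.0 and 15.3 in HFD-CON and 10.3, 14.4 and 11.9 in HFD-BCKDK. HFD-CON lay above ND-CON, and HFD-BCKDK overlapped both. It rose with diet by 0.60 (SE 0.18, adjusted p = 0.0223; 0.99 with total counts), a call lost without ND-CON replicate 1 (0.0553) or HFD-CON replicate 3 (0.0624). The vector value of -0.31 (adjusted p = 0.191) was not called with TMM scaling and was a fall of -0.76 with total counts.

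Within the GADD45 family, Gadd45a held 46.2% ± 7.22 of the summed level per kb in ND-CON, 14.0% ± 3.44 in HFD-CON and 23.4% ± 3.50 in HFD-BCKDK. With TMM scaling the summed level overlapped between ND-CON (22.0 to 28.1 CPM per kb) and HFD-CON (25.0 to 25.4), and HFD-BCKDK lay below HFD-CON at 18.4 to 22.0. The sum was not computed with total counts. Under that scaling the diet values were -1.37 for Gadd45a, 1.15 for Gadd45b and 0.99 for Gadd45g, so the overlap is given for TMM scaling alone. Reads of Gadd45b per read of Gadd45a were 0.317 to 0.600, 1.44 to 3.44 and 0.882 to 1.15 in the 3 groups, and of Gadd45g per read of Gadd45a 0.357 to 0.615, 2.04 to 2.94 and 1.22 to 1.91. For both pairs no 2 groups overlapped, with HFD-BCKDK between the other groups.

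**Figure D4:**
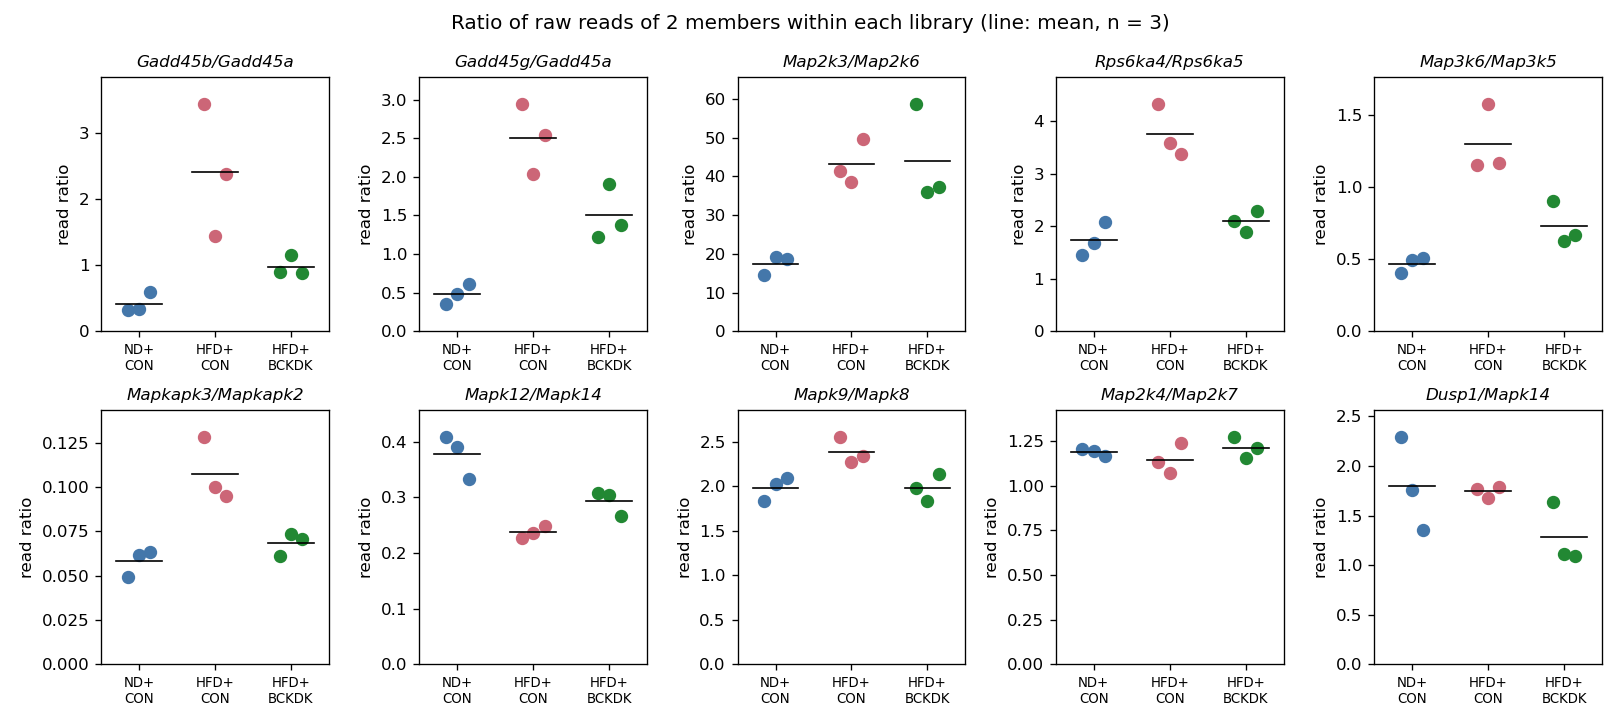
Raw reads of one member per read of another within each library (points; line, mean of 3), for 10 pairs, each panel on its own axis from 0. Gadd45b/Gadd45a runs from 0.317 to 0.600 in ND-CON and from 1.44 to 3.44 in HFD-CON, Map2k3/Map2k6 is higher in both HFD groups than in ND-CON, and Map2k4/Map2k7 overlaps in all 3 groups.

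The DUSP genes close the loop, since several are induced by the kinases that their proteins switch off. None of the 4 was called in the diet comparison with TMM scaling by edgeR (1 rise at an unadjusted p under 0.05), DESeq2 (0 calls) or limma-voom (0 calls). With edgeR and TMM scaling 22.7% of all genes were called higher and 20.6% lower. All 4 were called higher with total counts, where 42.3% of all genes were and the median of all genes was 0.40. None was called, or had an unadjusted p under 0.05 in edgeR, without HFD-CON replicate 3, beside 28.3% of all genes called. Dusp1 and Dusp8 promoter stretches are shown because the CRE octamer TGACGTCA, in capitals, was found in 3 of the 32 members' windows, Mapk10 among them, against 2.03% of genes and 1.79% of all windows. They run from 150 to 51 bases before the start, at chr17:26508523-26508622 and chr7:142095335-142095434, both on the minus strand.
Dusp1: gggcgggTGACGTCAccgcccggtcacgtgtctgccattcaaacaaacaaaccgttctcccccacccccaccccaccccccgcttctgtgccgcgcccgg
Dusp8: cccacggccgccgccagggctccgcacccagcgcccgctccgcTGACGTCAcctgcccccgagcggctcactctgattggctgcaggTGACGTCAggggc
Among the other motifs searched on both strands, AP-1 (TGANTCA) was found for Map2k6, Map2k7 and Rps6ka4 against 8.97% of genes and 7.81% of windows. The kappaB motif was found for Map3k7, Rps6ka5 and Gadd45g against 5.48% and 4.79%, and the match of Rps6ka5 overlaps a CCAAT. The E-box CACGTG was found for 5 members (Mapk12, Mapkapk3, Gadd45b, Gadd45g and Dusp1) against 8.09% and 7.15%, and the FoxO letters GTAAACA for 0 of 32 against 4.05% and 3.65%.

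Dusp8, a phosphatase of JNK and p38 found in heart and brain, stood at 22.8, 16.5 and 17.8 CPM in ND-CON, 18.3, 26.1 and 21.1 in HFD-CON and 32.1, 35.1 and 32.0 in HFD-BCKDK. The HFD-BCKDK libraries were the 3 highest of the 9, and the other 2 groups overlapped. With total counts HFD-CON (25.8 to 26.8 CPM) lay above ND-CON (15.1 to 20.7 CPM) and below HFD-BCKDK (28.4 to 30.3 CPM). The diet value was 0.19 (SE 0.15, adjusted p = 0.324), not called, and 0.57 with total counts (adjusted p = 0.0056), called. Dusp8 rose in HFD-BCKDK by 0.60 over HFD-CON (SE 0.15, adjusted p = 0.0152; 0.17 with total counts, not called) and by 0.80 over ND-CON (SE 0.15, adjusted p = 0.0327; 0.74 with total counts, called). The TMM call over HFD-CON was lost without HFD-CON replicate 3 (0.0507) or HFD-BCKDK replicate 2 (0.0521). The TMM call over ND-CON was lost in 7 of the 9 fits (adjusted p between 0.0531, without ND-CON replicate 1, and 0.123, without ND-CON replicate 3) and held without HFD-CON replicate 1 or 2.

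Dusp1 stood at 125, 89.9 and 78.8 CPM in ND-CON, 108, 112 and 107 in HFD-CON and 103, 72.4 and 73.8 in HFD-BCKDK. Its ND-CON libraries were spread widely around the HFD-CON ones, and all 3 HFD-BCKDK libraries lay below HFD-CON. The vector value of -0.39 (SE 0.18, adjusted p = 0.111) was not called with TMM scaling and was a fall of -0.85 with total counts. Reads of Dusp1 per read of Mapk14 were 1.36 to 2.29 in ND-CON, 1.68 to 1.79 in HFD-CON and 1.10 to 1.63 in HFD-BCKDK.

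Dusp16, whose protein acts mainly on JNK, rose with vector by 0.23 (SE 0.07, adjusted p = 0.0363; -0.23 with total counts, not called), from a range of 19.0 to 19.8 CPM in HFD-CON to 21.5 to 23.5 in HFD-BCKDK. That call was lost in 6 of the 9 fits that left out a library (adjusted p between 0.0535 and 0.105), those without ND-CON replicate 2 or 3, HFD-CON replicate 1 or 3 and HFD-BCKDK replicate 1 or 2. Dusp10 (MKP5), a phosphatase known in immune cells, was not called in either comparison with TMM scaling (0.65 and -0.42) and in both with total counts (1.07 and -0.90). It ranged over 3.26 to 3.88 CPM in ND-CON, 4.72 to 6.51 in HFD-CON and 2.29 to 5.76 in HFD-BCKDK.

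**Figure D5:**
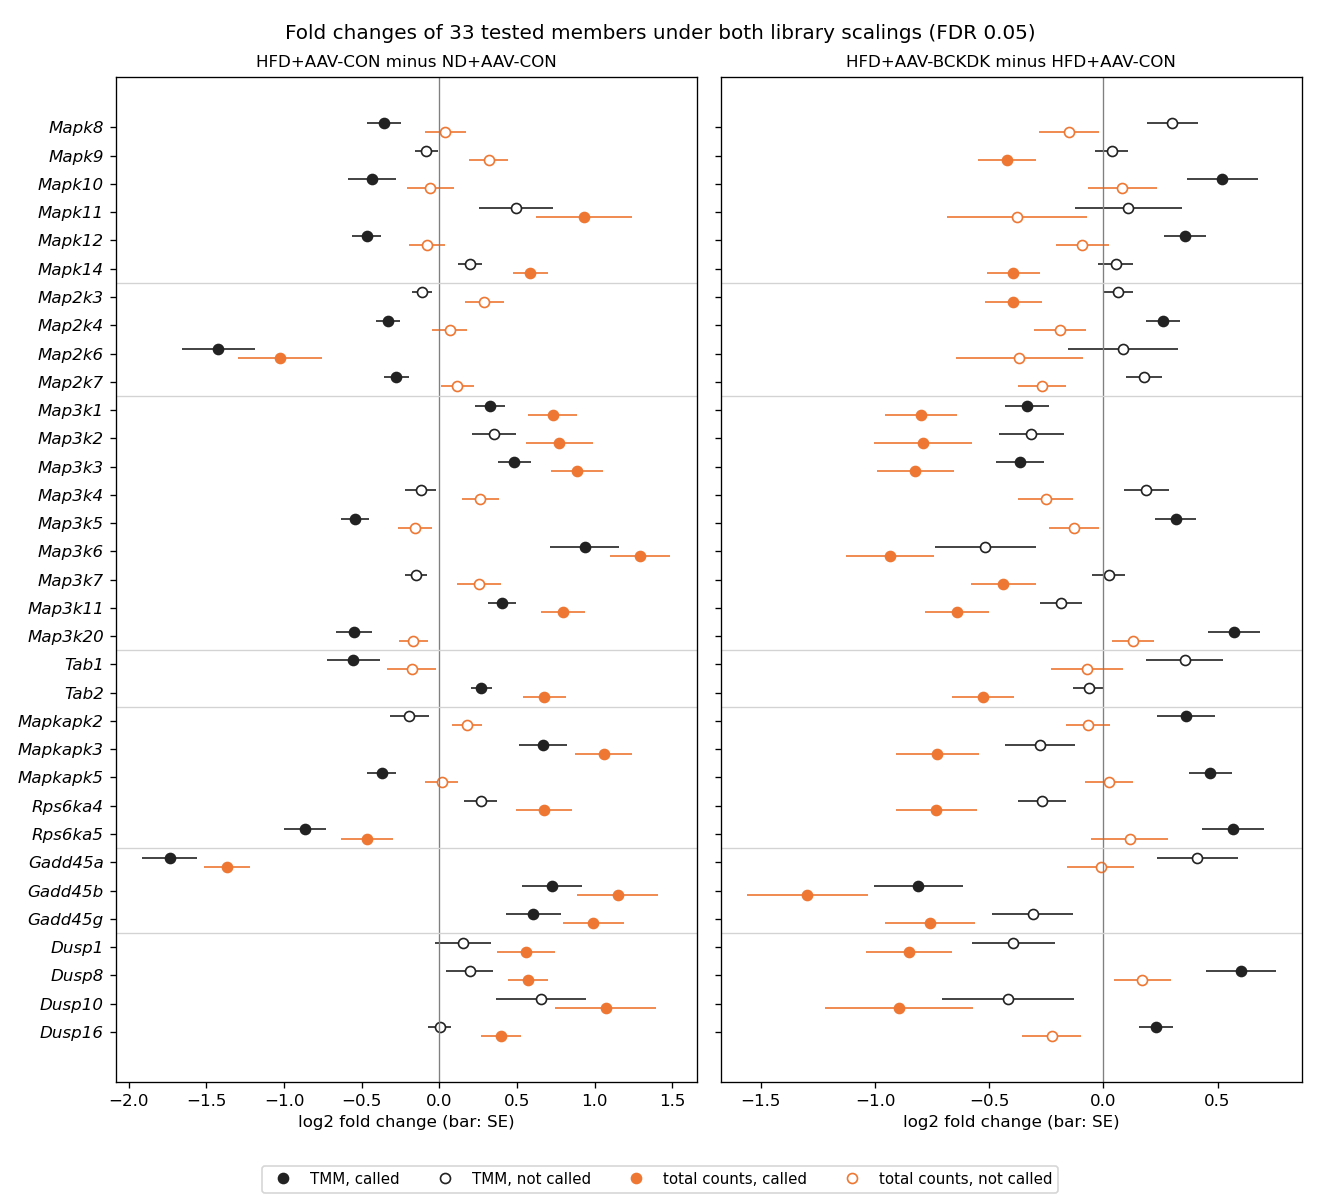
Log2 fold change (point) and SE (bar) of 33 members in the diet comparison (left) and the vector comparison (right), with TMM scaling in black and total counts in orange, filled where called at a false discovery rate of 0.05. Total counts shift every member right on the left panel and left on the right panel, and Map2k6, Rps6ka5 and Gadd45a are the members called lower with diet under both.

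Other genes of the pathway were taken from lists set by textbook role, and the 2 named from each were those with the smallest p in the diet comparison. The counts below stand beside 22.7% of all genes higher and 20.6% lower with diet (42.3% and 6.6% with total counts, 16.2% and 12.0% without HFD-CON replicate 3), and 17.3% and 20.9% with vector (2.81% and 48.5%, and 6.87% and 13.0%). Of the receptor adaptors, 7 of 10 rose and 0 fell with diet (10 rose with total counts), and 0 rose and 7 fell with vector (10 fell with total counts). At an unadjusted p under 0.05 edgeR gave 0 adaptors lower with diet and 0 higher with vector. Ripk1, a kinase at the TNF receptor, rose with diet by 0.90 (SE 0.14) and fell with vector by 0.92 (SE 0.14), and Irak4, the first kinase of interleukin-1 signalling, rose by 1.05 (SE 0.17) and fell by 0.98 (SE 0.17). Without HFD-CON replicate 3, 4 adaptors rose with diet and 3 fell with vector.

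Of the 19 tested other MAP3 and MAP4 kinases and relatives, 7 rose and 3 fell with diet (11 and 1 with total counts), and 3 rose and 6 fell with vector (0 and 10). These were 5 and 2 with diet and 1 and 5 with vector without HFD-CON replicate 3. Pak1 gave 2.35 (SE 0.37) and -2.57 (SE 0.38), and Taok3 gave 1.25 (SE 0.20) and -1.18 (SE 0.20). Of 7 tested scaffolds, 2 rose with diet and 2 fell with vector (4 and 3 with total counts): the actin cross-linker Flna (0.79 and -0.71) and Arrb2, a beta-arrestin that binds JNK3 (1.71 and -1.81), with the same counts without HFD-CON replicate 3. Of 9 ASK1 and MAPK inhibitors, 2 rose and 4 fell with diet (4 and 2 with total counts, 2 and 2 without HFD-CON replicate 3), with Trib1, a pseudokinase that binds MAP2 kinases, at 0.96 and Gstp1, a glutathione transferase that binds JNK, at -0.65. With vector 4 of these inhibitors rose and 2 fell (1 and 4 with total counts, 1 and 2 without HFD-CON replicate 3).

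Of 22 substrates and effectors, 7 rose and 2 fell with diet (12 and 0 with total counts), and 1 rose and 7 fell with vector (0 and 16). Without HFD-CON replicate 3, 6 rose and 1 fell with diet and 0 rose and 4 fell with vector, and 1 rise and 7 falls with vector had an unadjusted p under 0.05 in edgeR. Ddit3 (CHOP), a transcription factor that p38 phosphorylates, rose by 1.33 (SE 0.17) with diet and fell by 0.85 (SE 0.16) with vector, and Lsp1, an MK2 substrate of leukocytes, rose by 1.22 (SE 0.16) and fell by 1.26 (SE 0.16). Of 15 tested other phosphatases, 4 rose and 2 fell with diet (6 and 1 with total counts, 2 and 0 without HFD-CON replicate 3), with the ERK phosphatase Dusp6 at 0.70 and the leukocyte phosphatase Ptpn7 at 2.79. With vector 6 of these phosphatases rose and 4 fell (0 and 6 with total counts, 3 and 3 without HFD-CON replicate 3). Under total counts 3 rises with vector had an unadjusted p under 0.05 in edgeR. The vector call of Dusp6 (-0.42, adjusted p = 0.0291) was lost without HFD-CON replicate 3 (0.101), HFD-CON replicate 1 (0.0951), HFD-BCKDK replicate 2 (0.0923) or HFD-BCKDK replicate 3 (0.0754). In the ERK branch, 5 of 18 genes rose and 2 fell with diet (9 and 0 with total counts, 4 and 1 without HFD-CON replicate 3), and Rps6ka1 (1.44, SE 0.26) and Nras (0.42, SE 0.09) were the 2 with the smallest p. All named genes of these lists kept their diet direction and call with total counts and without HFD-CON replicate 3. The summed macrophage, T and NK cell and fibroblast markers, given above, moved in the same direction as the rises of these genes, and their part in them was not tested.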

How the data were processed

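The authors deposited 1 table of raw read counts per gene, with 1 column per library and no normalization. Per the submitters' processing notes, HISAT2 2.0.5 and the mm10 build were used; the labels name no counting tool, annotation or strand setting. Trizol extraction and a VAHTS mRNA-seq kit are named per the labels' protocols. Of 26178 entries, 22036 were annotated genes, and the other 4142, loci with no gene name, entered neither library sizes nor tests. Counts were analysed with edgeR 4.0.16 in R 4.3.3 (filterByExpr by group, TMM factors, 1 quasi-likelihood fit to all 9 libraries, Benjamini-Hochberg adjustment over 14160 genes), and SEs were taken from the F statistic. Every adjusted p comes from that test unless DESeq2 1.42.0 or limma-voom (limma 3.58.1) is named. CPM was computed here. The pipeline was tested on simulated data in which rises and falls were balanced and most genes did not differ between groups. That setting cannot test the choice of scaling. The labels call the replicates biological and do not say whether a replicate number marks a shared litter, batch or day. Correlations of deviations between same-numbered libraries ran from -0.22 to 0.19. With 3 libraries a group they cannot decide whether the numbers pair samples, and the main fit used no pairing. The 34 members, the gene lists and the ratios were chosen with earlier results of these data known. The text names all members and, from each other pathway list, the 2 genes with the smallest p in the diet comparison. Alternatives were total-count and RLE scaling, other filters and tools, a replicate block, fits of 2 groups, unnamed loci kept, mitochondrial genes left out, and leaving out each library.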

Additional observations from a re-analysis of the deposited data

How the results depend on the processing

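Libraries held 32803233 to 45483044 reads, but some members had few of them: Map2k6 30 to 145 and Mapk11 68 to 232 a library, where counting error adds to the spread. Members that rose with diet numbered 8 with TMM scaling and 16 with total counts, and those that fell 12 and 3, or 7 with mitochondrial genes left out of total-count scaling. With vector, 10 rose, against 0 with total counts, 4 with mitochondrial genes left out and 6 in a fit of only the 2 groups, and 3 fell, against 16 with total counts and 8 with mitochondrial genes left out. The median of all genes without mitochondrial genes was 0.14 with diet and -0.15 with vector. Against ND+AAV-CON, HFD+AAV-BCKDK had 1 member higher and 2 lower, against 3 higher with DESeq2, and 0 higher and 1 lower with a replicate block, a pairing that the labels do not state. In that comparison calls over all genes were 167 higher and 180 lower, against 486 and 416 with DESeq2, 464 and 409 in a fit of the 2 groups and 57 and 50 with the block.

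With total counts these log2 differences changed sign. In the diet comparison they were 0.040 for Mapk8, 0.32 for Mapk9, 0.29 for Map2k3, 0.067 for Map2k4, 0.12 for Map2k7, 0.26 for Map3k4, 0.26 for Map3k7, 0.18 for Mapkapk2 and 0.014 for Mapkapk5. With mitochondrial genes left out they were 0.060 for Mapk9, 0.033 for Map2k3 and 0.019 for Map3k4. In the vector comparison with total counts they were -0.15 for Mapk8, -0.42 for Mapk9, -0.38 for Mapk11, -0.092 for Mapk12, -0.40 for Mapk14, -0.39 for Map2k3, -0.19 for Map2k4, -0.37 for Map2k6, -0.27 for Map2k7, -0.25 for Map3k4, -0.13 for Map3k5, -0.44 for Map3k7, -0.073 for Tab1, -0.068 for Mapkapk2, -0.011 for Gadd45a and -0.23 for Dusp16. With mitochondrial genes left out they were -0.11 for Mapk9, -0.044 for Mapk11, -0.084 for Mapk14, -0.078 for Map2k3, -0.052 for Map2k6 and -0.12 for Map3k7. The cause was not tested.

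Leaving out each library in turn gave 6 to 11 members higher and 8 to 13 lower with diet, 4 to 14 higher and 1 to 5 lower with vector, and 0 to 1 higher and 0 to 2 lower against ND+AAV-CON. The values near 0 of Dusp16 with diet (-0.025 to 0.027) and of Map2k6 (-0.013 to 0.24), Map3k7 (-0.0092 to 0.079) and Mapk11 (-0.041 to 0.33) with vector changed sign in some of these fits.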
